A study of Mus musculus with 6 samples.

Results

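Water and sodium cross the membranes of kidney cells through a small set of proteins, and 8 of their genes are described here: the aquaporins Aqp1, Aqp3, Aqp5 and Aqp11, the beta subunits Atp1b1, Atp1b2 and Atp1b3 of the sodium pump, and Fxyd5, a small membrane protein that associates with the pump. They were taken by symbol from the 21719 genes of the count table, and all 8 were found. Their Entrez Gene IDs are 11826 for Aqp1, 11828 for Aqp3, 11830 for Aqp5, 66333 for Aqp11, 11931 for Atp1b1, 11932 for Atp1b2, 11933 for Atp1b3 and 18301 for Fxyd5. The RNA came from MPC5, a line of mouse podocytes that grows under a temperature-controlled T antigen, in 3 libraries labelled Setdb2KO and 3 labelled Setdb2WT, and all 6 were of cells in high glucose. Setdb2 encodes a histone methyltransferase, and the design sets its knockout against wild type under that one condition. How the knockout was made, whether it is a single clone, and whether libraries of a label grew as separate cultures: not given in the sources used here. A p-value below therefore covers the spread between these libraries only, which could be technical. The 8 genes were selected on their difference between the groups, which was already known. Their own differences are therefore given as a description with no test, and tests are kept for other genes of water and sodium transport.

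Aquaporins are channels that let water, and in some members glycerol, pass along osmotic gradients. The sodium pump, or Na,K-ATPase, uses ATP to move sodium out of the cell and potassium in; its alpha subunit carries out the transport, its beta subunit is needed to fold the alpha subunit and bring it to the membrane, and FXYD proteins tune its kinetics. In the kidney, Aqp1 is best known from the proximal tubule and descending thin limb, and the pump drives sodium reabsorption along the tubule. Cells in hypertonic surroundings also gather organic osmolytes through genes under the transcription factor Nfat5.

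Library totals ran from 36461449 to 36761970 reads in the Setdb2KO-labelled libraries and from 36767396 to 37129174 in the Setdb2WT-labelled ones. The targeted gene was not lower under its knockout label: Setdb2 had 17, 15 and 25 reads in the Setdb2KO-labelled libraries, against 12, 10 and 9 in the Setdb2WT-labelled ones (log2 fold change 0.73, SE 0.38, adjusted p = 0.088 in edgeR's quasi-likelihood test, and 0.043 under total-count scaling). Smad3, named in the series title as a gene that Setdb2 silences, fell to 61.9 ± 2.9 CPM (reads scaled to library size) in Setdb2KO-labelled libraries, against 162 ± 3.1 CPM in Setdb2WT-labelled ones (SD, n = 3 each; adjusted p = 3.8e-13, edgeR). Groups are for this reason named by their labels. Whether the labels were exchanged, or the edit left the RNA in place, was not tested; an exchange would turn every direction given here. Of the podocyte markers, Wt1 had at most 2 reads and Lmx1b at most 1 read in any library. Synpo, an actin-associated podocyte protein, was present at 25.4 ± 1.8 CPM in Setdb2KO-labelled and 43.6 ± 0.60 CPM in Setdb2WT-labelled libraries (SD, n = 3 each). The 11 podocyte markers with a row summed to 1609 to 1682 CPM in Setdb2KO-labelled libraries, against 1952 to 1956 CPM in Setdb2WT-labelled ones, with 2 of 9 tested higher and 6 lower. Cd2ap, which rose 1.53-fold, and Actn4, which fell 1.37-fold, made up most of that sum. Podxl fell 10.2-fold to 4.96 ± 0.38 CPM in Setdb2KO-labelled libraries, against 50.5 ± 1.6 CPM in Setdb2WT-labelled ones. Npnt fell 19.0-fold to 4.90 ± 0.18 CPM, against 93.1 ± 1.3 CPM (SD, n = 3 each; adjusted p = 1.5e-14 and 2.6e-16, edgeR). Cd2ap, Actn4, Podxl and Npnt were chosen after their values were seen. Markers of other cell types differed in both directions. Mesangial markers summed to 5.45 to 6.46 CPM in Setdb2KO-labelled libraries, against 25.3 to 26.1 CPM in Setdb2WT-labelled ones, with 3 of 3 tested lower. Immune markers summed to 15.2 to 18.1 CPM in Setdb2KO-labelled libraries, against 25.6 to 27.1 CPM in Setdb2WT-labelled ones. Of 3 tested immune markers, 2 were lower. The other, Cd68, was higher only at an adjusted p of 0.049 (edgeR), and its libraries overlapped between the groups. Endothelial markers summed to 12.0 to 13.4 CPM in Setdb2KO-labelled libraries, against 10.3 to 11.8 CPM in Setdb2WT-labelled ones, with 1 of 2 tested higher and 1 lower. Flt1, which rose 1.44-fold, made up most of that sum, and Kdr fell 1.87-fold. The endothelial markers Cdh5, Emcn and Tek had at most 3 reads in any library. The part of such markers in the differences below was not tested. Differences between these labels are common: 83.8% of the 13509 genes tested passed edgeR's test at an adjusted p of 0.05, 41.5% higher and 42.3% lower in Setdb2KO-labelled libraries. Of the 8 chosen genes, 5 had enough reads to be tested; 4 of these passed, 1 higher and 3 lower. In the same 4 the libraries of the groups did not overlap, as in 84.6% of all genes tested. Nothing is read from these counts, since that contrast was known when the genes were chosen.

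The 250 bases before the annotated start of each gene with a clear level are shown because these genes lay on opposite sides of the comparison: Aqp1, Aqp5 and Fxyd5 were lower in the Setdb2KO-labelled libraries, Atp1b3 was higher, and Atp1b1 was close to level. All are from RefSeq on GRCm38.p6, written 5′ to 3′ along the gene. Aqp1 lies at chr6:55336049-55336298 on the plus strand, Aqp5 at chr15:99590778-99591027 on the plus strand, Fxyd5 at chr7:31042332-31042581 on the minus strand and Atp1b1 at chr1:164458356-164458605 on the minus strand. Atp1b3 has 2 annotated starts on the minus strand, with windows at chr9:96364432-96364681 and chr9:96363716-96363965. Capitals mark matches, on either strand, to the GC box GGGCGG, the E-box CACGTG, the core CAGAC of the CAGA box bound by Smad3, the TATA box TATAAA and the TonE element bound by Nfat5.
Aqp1: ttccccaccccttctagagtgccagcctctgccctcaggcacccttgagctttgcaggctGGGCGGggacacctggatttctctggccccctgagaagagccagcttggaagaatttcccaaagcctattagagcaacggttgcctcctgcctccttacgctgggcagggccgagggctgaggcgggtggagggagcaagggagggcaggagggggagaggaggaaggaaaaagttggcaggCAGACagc
Aqp5: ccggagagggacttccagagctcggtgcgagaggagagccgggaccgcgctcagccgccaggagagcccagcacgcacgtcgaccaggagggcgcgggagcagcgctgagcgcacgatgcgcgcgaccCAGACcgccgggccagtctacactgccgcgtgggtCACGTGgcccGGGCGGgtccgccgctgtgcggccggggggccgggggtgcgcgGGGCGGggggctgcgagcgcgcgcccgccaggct
Fxyd5: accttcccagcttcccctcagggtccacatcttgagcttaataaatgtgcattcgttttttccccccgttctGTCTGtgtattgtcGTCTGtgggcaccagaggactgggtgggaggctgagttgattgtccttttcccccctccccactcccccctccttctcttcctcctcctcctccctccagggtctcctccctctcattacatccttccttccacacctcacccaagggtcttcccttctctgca
Atp1b1: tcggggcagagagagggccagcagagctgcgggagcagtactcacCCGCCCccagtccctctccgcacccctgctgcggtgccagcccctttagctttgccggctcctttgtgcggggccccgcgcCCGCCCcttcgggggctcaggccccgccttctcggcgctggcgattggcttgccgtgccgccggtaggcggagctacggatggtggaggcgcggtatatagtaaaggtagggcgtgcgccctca
Atp1b3 first start: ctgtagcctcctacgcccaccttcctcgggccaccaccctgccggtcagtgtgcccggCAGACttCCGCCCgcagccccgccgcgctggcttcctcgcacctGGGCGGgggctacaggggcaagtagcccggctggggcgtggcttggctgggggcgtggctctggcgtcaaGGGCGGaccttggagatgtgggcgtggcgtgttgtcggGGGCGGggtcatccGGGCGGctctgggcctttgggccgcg
Atp1b3 second start: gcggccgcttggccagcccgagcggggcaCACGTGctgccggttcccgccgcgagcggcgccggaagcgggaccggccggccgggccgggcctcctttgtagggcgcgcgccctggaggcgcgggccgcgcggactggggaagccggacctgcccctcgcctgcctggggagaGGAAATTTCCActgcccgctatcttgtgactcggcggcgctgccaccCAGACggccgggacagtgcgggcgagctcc

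Base composition differed among these windows. The share of G and C was 62.0% before Aqp1, 78.4% before Aqp5 and 55.6% before Fxyd5, with 5, 38 and 3 CG pairs. It was 70.4% before Atp1b1, and 73.6% and 76.8% before the starts of Atp1b3, against a median of 52.4% over 32851 windows of the same length. GC boxes numbered 1 before Aqp1, 2 before Aqp5, 0 before Fxyd5 and 2 before Atp1b1; Atp1b3 had 5 at its first start and 0 at its second. A GC box occurred in 32.7% of all windows. The E-box, which 6.02% of windows hold, was found before Aqp5 and the second Atp1b3 start. CAGAC, held by 42.2% of windows, occurred once before Aqp1, Aqp5 and each start of Atp1b3, 2 times before Fxyd5 and 0 times before Atp1b1. TATAAA, held by 12.4%, was found in none of the 6 windows printed. It was found before Aqp3, whose window is not printed. TonE, held by 4.31%, matched only the second start of Atp1b3 among the windows of the 7 genes with an entry. A match is a match of letters and shows no binding.

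Aqp1 was per kilobase of transcript the most abundant of the 4 aquaporins in every library, and its level differed between the labels by more than that of the other 3. It had 2016, 2059 and 1907 reads in the Setdb2KO-labelled libraries, against 16265, 16442 and 16386 in the Setdb2WT-labelled ones. Every Setdb2KO-labelled library was far below every Setdb2WT-labelled one. Its mean was 51.7 ± 1.8 CPM in Setdb2KO-labelled and 468 ± 3.1 CPM in Setdb2WT-labelled libraries (SD, n = 3 each), 9.05-fold lower under the Setdb2KO label (log2 fold change -3.18, SE 0.03). The spread within a group was small beside that, with a coefficient of variation of 3.45% in Setdb2KO-labelled and 0.655% in Setdb2WT-labelled libraries. In bulk RNA, fewer cells that express a gene and less of its RNA per cell cannot be told apart.

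Ranked by reads per kilobase, Aqp1 stood above 73.5% of 15772 protein-coding genes in Setdb2KO-labelled libraries and above 97.5% in Setdb2WT-labelled ones. Aqp1 is also a marker of the proximal tubule. The other 8 genes of that marker list, of which 5 have a row, summed to 99.2 to 107 CPM in Setdb2KO-labelled libraries, against 129 to 133 CPM in Setdb2WT-labelled ones. Of its 2 tested genes, the endocytic receptor Lrp2 fell 1.32-fold (adjusted p = 2.4e-07, edgeR) and its partner Cubn rose 1.68-fold (adjusted p = 1.4e-05, edgeR). Lrp2 made up most of that sum, at 95.5 ± 4.5 CPM in Setdb2KO-labelled and 126 ± 1.8 CPM in Setdb2WT-labelled libraries (SD, n = 3 each). The fall of the sum is therefore mainly that of Lrp2. The proximal tubule factor Hnf4a and the fatty acid transporter Slc27a2 had at most 2 reads in any library of either group. The part of these markers in the Aqp1 difference was not tested.

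Aqp5, the water channel of salivary and lacrimal glands and of type I cells in the lung, was present at a low level. It had 55, 72 and 76 reads in the Setdb2KO-labelled libraries, against 160, 117 and 143 in the Setdb2WT-labelled ones. The groups did not overlap, although the lowest Setdb2WT-labelled library was well below the other two. The mean was 1.75 ± 0.29 CPM in Setdb2KO-labelled and 4.00 ± 0.64 CPM in Setdb2WT-labelled libraries (SD, n = 3 each), 2.28-fold lower under the Setdb2KO label (log2 fold change -1.19, SE 0.19). Within a group its coefficient of variation was 16.8% and 15.9% in Setdb2KO-labelled and Setdb2WT-labelled libraries, where counting error alone would give 12.2% and 8.45%. The non-coding gene Gm34765 overlaps Aqp5 in the RefSeq table; it had 3.80 ± 0.33 CPM in Setdb2KO-labelled and 3.03 ± 0.34 CPM in Setdb2WT-labelled libraries, and did not pass the test (adjusted p = 0.054, edgeR). Because the strand setting of the counting is not given, reads from sequence that the 2 genes share cannot be told apart.

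Aqp11 and Aqp3 were close to the limit of detection. Aqp11, an aquaporin of internal membranes whose loss in mice leads to cystic kidneys, had 1, 2 and 4 reads in the Setdb2KO-labelled libraries, against 4, 11 and 4 in the Setdb2WT-labelled ones. The highest Setdb2KO-labelled library had as many reads as the lowest Setdb2WT-labelled ones. Its summed-read ratio, Setdb2KO-labelled over Setdb2WT-labelled, was 0.334 with an exact 95% interval of 0.119 to 0.830, which covers counting error only. On the log2 scale that ratio is -1.58, and it was -2.22 without Setdb2KO replicate 3 and -0.92 without Setdb2WT replicate 2. Aqp3, a glycerol and water channel of collecting duct cells, had 6, 1 and 3 reads in the Setdb2KO-labelled libraries, against 2, 2 and 5 in the Setdb2WT-labelled ones. These overlapped, with a ratio of 1.01 (exact 95% interval 0.368 to 2.80), so a difference was not detectable at this depth. Of the other 8 aquaporin genes listed, 4 had reads and 0 reached the level of the test. Aqp2, the vasopressin-regulated channel of the collecting duct, had 1 read over all 6 libraries. Aqp6, known in rat from vesicles of intercalated cells, had 5, 3 and 4 reads in the Setdb2KO-labelled libraries, against 0, 0 and 2 in the Setdb2WT-labelled ones. Aqp5 lies between these genes on chromosome 15 in the RefSeq table. The collecting duct markers with a row, 7 of 11, Aqp2 and Aqp3 among them, summed to 0.104 to 0.284 CPM in Setdb2KO-labelled libraries, against 0.113 to 0.374 CPM in Setdb2WT-labelled ones.

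Aqp1 and Aqp5 together made up nearly all aquaporin transcripts. Per kilobase, Aqp1 held 95.0% ± 0.79 of the reads of the 4 genes in Setdb2KO-labelled libraries, against 98.7% ± 0.18 in Setdb2WT-labelled ones (SD, n = 3 each). Aqp5 held 4.72% ± 0.84 in Setdb2KO-labelled and 1.24% ± 0.20 in Setdb2WT-labelled libraries. Aqp5 took the larger share in the Setdb2KO-labelled libraries, although its own level was lower there.

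**Figure D1:**
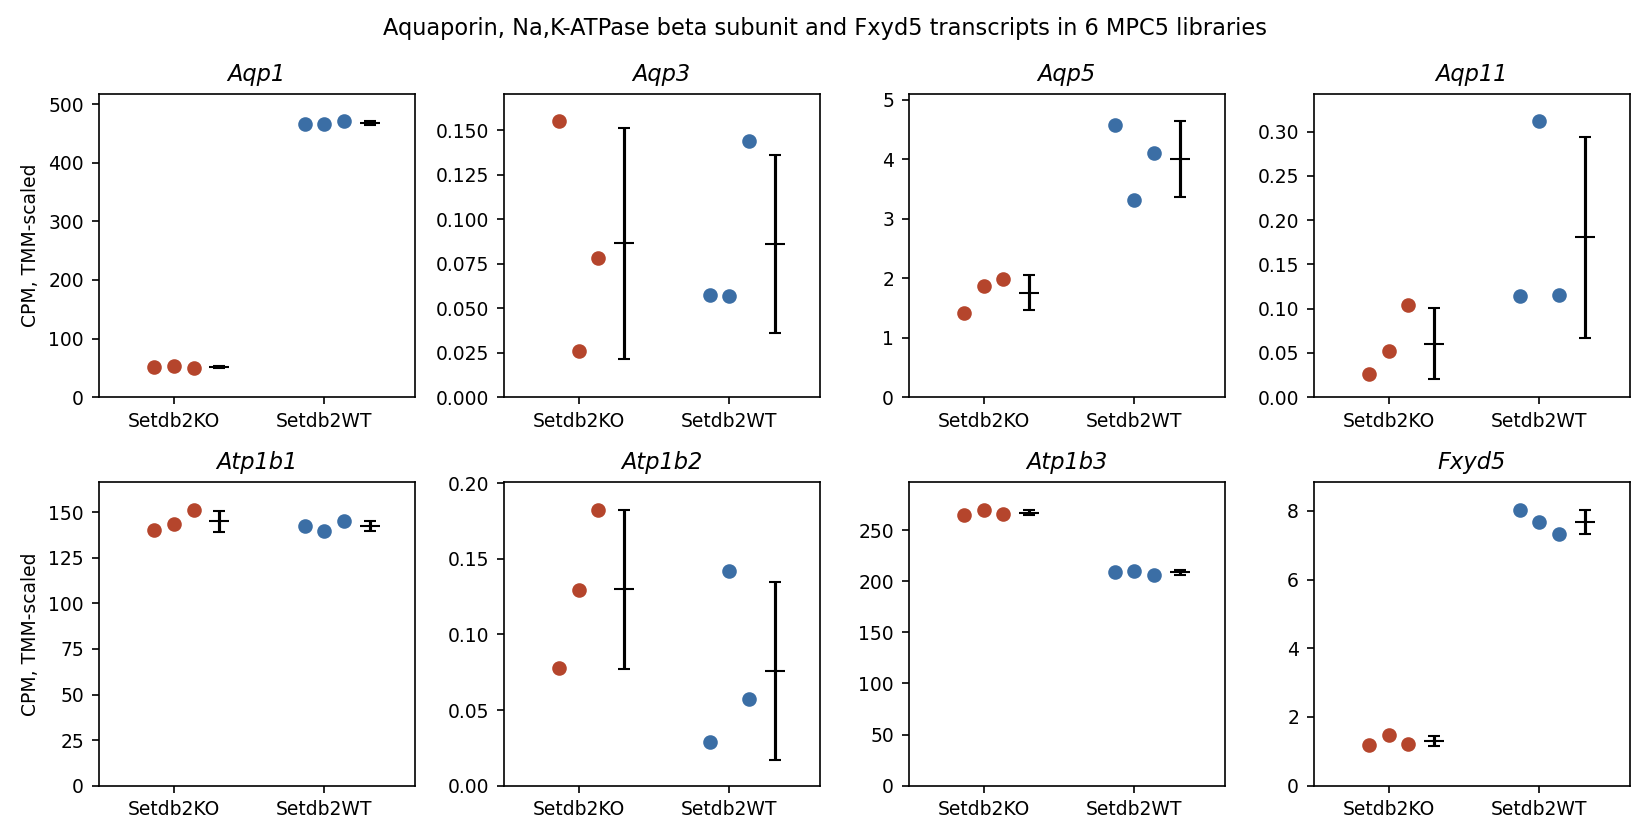
TMM-scaled CPM of the 8 genes in each library, 1 panel per gene with its own axis from 0; points are libraries, and bars give mean and SD of the 3 libraries of a group. Aqp1, Aqp5 and Fxyd5 lie lower in the Setdb2KO-labelled libraries and Atp1b3 lies higher, with no overlap, while Aqp3 and Atp1b2 stay under 0.2 CPM in every library and Atp1b1 overlaps.

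The beta subunits differed by less than Aqp1. Atp1b3, a beta subunit of many tissues, had 10262, 10458 and 10212 reads in the Setdb2KO-labelled libraries, against 7315, 7413 and 7177 in the Setdb2WT-labelled ones. All Setdb2KO-labelled libraries were above all Setdb2WT-labelled ones. The mean was 267 ± 2.6 CPM in Setdb2KO-labelled and 209 ± 2.0 CPM in Setdb2WT-labelled libraries (SD, n = 3 each), 1.28-fold higher under the Setdb2KO label (log2 fold change 0.36, SE 0.03). With total counts in place of TMM (trimmed mean of M values, a scaling that assumes most genes do not differ), the log2 fold change was 0.51. Its coefficient of variation, 0.961% in Setdb2KO-labelled and 0.982% in Setdb2WT-labelled libraries, was no larger than the 0.985% and 1.17% that counting error alone would give.

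Atp1b1, the main beta subunit of kidney tubules, was nearly level. It had 5431, 5548 and 5810 reads in the Setdb2KO-labelled libraries, against 4978, 4932 and 5057 in the Setdb2WT-labelled ones. After TMM scaling the groups overlapped, with 145 ± 5.7 CPM in Setdb2KO-labelled and 143 ± 2.7 CPM in Setdb2WT-labelled libraries (SD, n = 3 each; log2 fold change 0.02, SE 0.04). Under total-count scaling, which moves the median of all genes up by 0.15, the log2 fold change of Atp1b1 was 0.18. Nme7 overlaps Atp1b1 in the RefSeq table and was at 31.3 ± 0.72 CPM in Setdb2KO-labelled and 29.6 ± 1.2 CPM in Setdb2WT-labelled libraries, with no call (adjusted p = 0.17, edgeR).

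Atp1b2, the beta subunit of glia that was also described as an adhesion molecule, was close to 0. It had 3, 5 and 7 reads in the Setdb2KO-labelled libraries, against 1, 5 and 2 in the Setdb2WT-labelled ones. The libraries overlapped, and the ratio of summed reads was 1.70 (exact 95% interval 0.677 to 4.63). Beside it on chromosome 11 lies Trp53, which had 234 ± 8.3 CPM in Setdb2KO-labelled and 283 ± 1.8 CPM in Setdb2WT-labelled libraries and fell 1.21-fold (adjusted p = 2.6e-06, edgeR).

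The beta subunits can be compared within a library, where scaling between libraries plays no part. Per kilobase of transcript, Atp1b3 made up 71.0%, 70.9% and 69.4% of the beta subunit reads in the Setdb2KO-labelled libraries, against 65.5%, 66.0% and 64.7% in the Setdb2WT-labelled ones. The groups did not overlap, and Atp1b1 made up nearly all of the rest. The ratio of Atp1b3 to Atp1b1 was 2.39 ± 0.097 in Setdb2KO-labelled and 1.89 ± 0.055 in Setdb2WT-labelled libraries (SD, n = 3 each). These shares are of transcripts and say nothing of how many pumps were assembled.

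**Figure D2:**
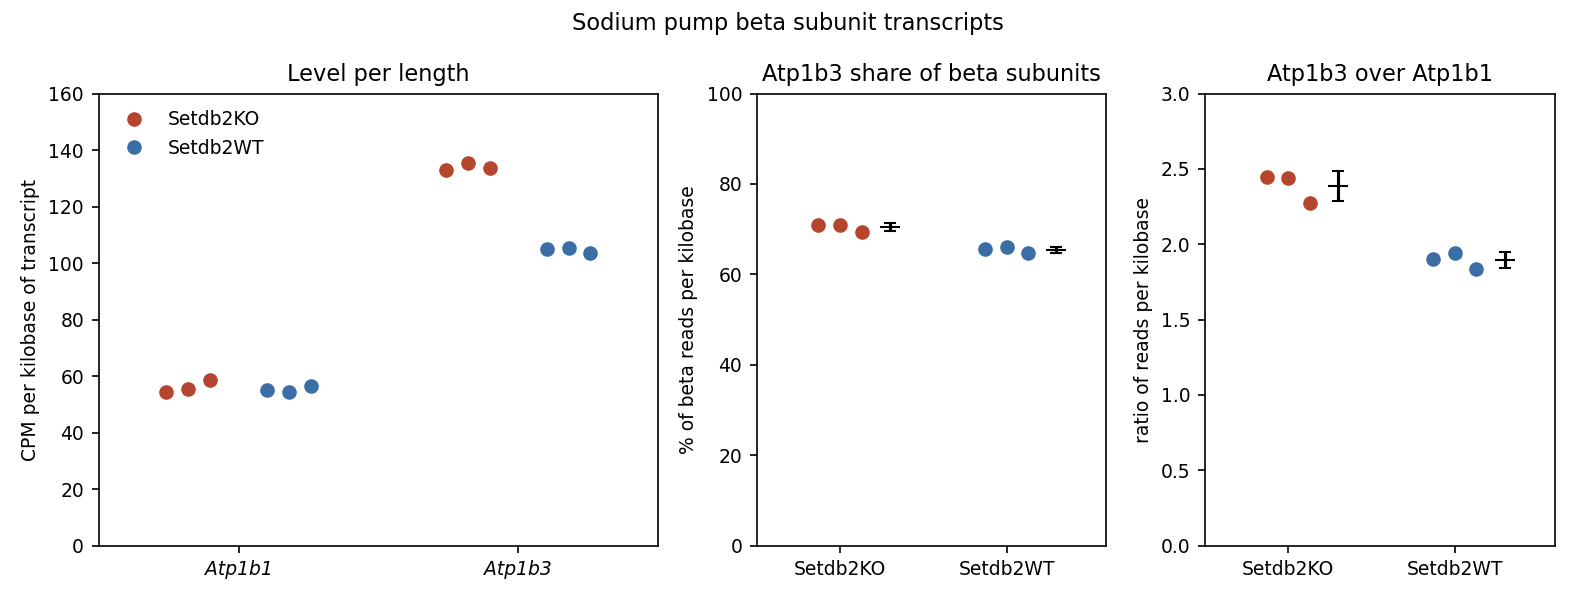
Beta subunit transcripts of the sodium pump per library: CPM per kilobase of transcript of Atp1b1 and Atp1b3 (left), the share of beta subunit reads per kilobase from Atp1b3 in % (middle), and the ratio of Atp1b3 to Atp1b1 (right); points are libraries, and bars in the middle and right panels give mean and SD, n = 3 each. Atp1b3 makes up 70.4% ± 0.87 in Setdb2KO-labelled and 65.4% ± 0.65 in Setdb2WT-labelled libraries, while the points of Atp1b1 overlap.

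Fxyd5, also called dysadherin, a modulator of the pump that has been linked to loss of E-cadherin, had 46, 57 and 47 reads in the Setdb2KO-labelled libraries, against 281, 271 and 255 in the Setdb2WT-labelled ones. All Setdb2KO-labelled libraries were below all Setdb2WT-labelled ones. The mean was 1.30 ± 0.15 CPM in Setdb2KO-labelled and 7.69 ± 0.35 CPM in Setdb2WT-labelled libraries (SD, n = 3 each), 5.92-fold lower under the Setdb2KO label (log2 fold change -2.57, SE 0.14). Its ratio of summed reads was 0.169 (exact 95% interval 0.141 to 0.201, counting error only). The non-coding Gm38984 and Mir7050, which overlap it in the RefSeq table, were not analysed here.

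Fxyd2, the gamma subunit of the renal sodium pump, was opposite to Fxyd5. It had 59, 74 and 49 reads in the Setdb2KO-labelled libraries, against 0, 0 and 5 in the Setdb2WT-labelled ones. It rose (adjusted p = 2.2e-06, edgeR), and its reads summed over a group were 33.0 times as many in Setdb2KO-labelled libraries (exact 95% interval 13.9 to 103). The size rests on Setdb2WT replicate 3, which holds all 5 of its reads: the fitted log2 fold change was 4.95 with that library and 8.87 without it, where every Setdb2WT-labelled library is at 0 and the value hangs on the prior count. It was the only tested gene of the 6 other FXYD genes listed.

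Set in order per kilobase of transcript, the 8 genes ranked differently in the groups. In Setdb2KO-labelled libraries Atp1b3 came first at 134 ± 1.3 CPM per kilobase, then Atp1b1 at 56.2 ± 2.2, Aqp1 at 19.7 ± 0.68, Fxyd5 at 1.11 ± 0.13 and Aqp5 at 0.976 ± 0.16. In Setdb2WT-labelled libraries Aqp1 came first at 178 ± 1.2 CPM per kilobase, then Atp1b3 at 105 ± 1.0, Atp1b1 at 55.3 ± 1.1, Fxyd5 at 6.56 ± 0.30 and Aqp5 at 2.23 ± 0.35 (SD, n = 3 each). Neighbours in these orders were separated by more than their spread, except Fxyd5 and Aqp5 in the Setdb2KO-labelled libraries. There the range of Fxyd5, 1.01 to 1.26 CPM per kilobase, overlapped that of Aqp5, 0.791 to 1.10. Aqp3, Aqp11 and Atp1b2 were all under 0.1 CPM per kilobase in every library and overlapped one another.

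By the distance between centred log2 CPM profiles over the 6 libraries, the genes most like Aqp1 were Scd2, a fatty acid desaturase, at a distance of 0.061, Pfkl, a phosphofructokinase subunit, at 0.095, and Fads2, another desaturase, at 0.11. Of 11306 protein-coding genes compared, 24 lay within 0.3 of Aqp1. The genes most like Atp1b3 were the zinc finger factor Maz, the ubiquitin ligase Mdm2 and Wrnip1, at 0.028, 0.032 and 0.032. Within 0.3 of Atp1b3 lay 1762 genes. With 6 libraries in 2 groups, such a likeness is mostly one of the difference between the labels.

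Few of the genes that lie beside the 8 in the RefSeq table could be tested. Of 16 neighbours, 8 had reads and 3 were tested. Besides Trp53, these were Nol6 beside Aqp3 (log2 fold change -0.08, adjusted p = 0.070, edgeR) and Clns1a beside Aqp11 (log2 fold change -0.07, adjusted p = 0.11, edgeR), and neither passed.

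Of the sodium channels and sodium-coupled transporters outside the 8, 17 were tested: 8 rose, 5 fell and 4 missed the threshold. That is 76.5% called, near the 83.8% of all genes tested. Their median log2 fold change was 0.06, against 0.0045 over all genes tested. Among the 6 with the highest level, Slc12a2, the Na-K-2Cl cotransporter of many cells, was at 133 ± 7.0 CPM in Setdb2KO-labelled and 134 ± 4.2 CPM in Setdb2WT-labelled libraries (log2 fold change -0.01, adjusted p = 0.89, edgeR). It passed with a positive sign under total-count scaling, at a log2 fold change of 0.15. The sodium-phosphate cotransporter Slc20a2 fell 2.71-fold (adjusted p = 4.3e-13, edgeR), and the related Slc20a1 rose 1.05-fold (adjusted p = 0.040, edgeR), a call lost without Setdb2KO replicate 1 (adjusted p = 0.10) and without any one Setdb2WT replicate (adjusted p from 0.097 to 0.17). Slc9a5, a sodium-proton exchanger best known from neurons, fell 1.78-fold (adjusted p = 2.0e-10, edgeR). Slc8b1, the sodium-calcium exchanger of mitochondria, rose 1.27-fold (adjusted p = 1.1e-05, edgeR).

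Of the 5 that fell, 3 carry bicarbonate with sodium. Slc4a7 fell to 19.9 ± 2.1 CPM in Setdb2KO-labelled libraries, against 60.7 ± 1.2 CPM in Setdb2WT-labelled ones (SD, n = 3 each; adjusted p = 1.5e-11, edgeR). Slc4a4 and Slc4a8, chosen after their values were seen, fell 2.23-fold and 2.42-fold (adjusted p = 4.2e-10 and 2.4e-10, edgeR). The 3 with the highest fitted rise were at low levels and were also chosen after their values were seen. Scnn1a, the alpha subunit of the epithelial sodium channel, had 253, 253 and 264 reads in the Setdb2KO-labelled libraries, against 56, 49 and 49 in the Setdb2WT-labelled ones. It rose 4.53-fold (adjusted p = 2.2e-09, edgeR), while Scnn1b, the beta subunit, had at most 1 read in any library. Slc8a2, a sodium-calcium exchanger, had 249, 265 and 236 reads in the Setdb2KO-labelled libraries, against 0, 2 and 2 in the Setdb2WT-labelled ones. Its summed reads stood at a ratio of 170 (exact 95% interval 66.1 to 626; adjusted p = 3.1e-11, edgeR). Slc12a3, the thiazide-sensitive sodium-chloride cotransporter of the distal tubule, had 16, 12 and 14 reads in the Setdb2KO-labelled libraries, against 0, 0 and 1 in the Setdb2WT-labelled ones (adjusted p = 7.1e-05, edgeR). Its ratio was 38.1 (exact 95% interval 6.47 to 1540), and the fitted log2 fold change was 4.82, against 6.76 without Setdb2WT replicate 3, which holds the 1 read. The related Slc12a1, also a marker of the loop and distal tubule, went the other way. It had 0, 1 and 0 reads in the Setdb2KO-labelled libraries, against 10, 6 and 5 in the Setdb2WT-labelled ones. These were too few to be tested, and the ratio of summed reads was 0.0432 (exact 95% interval 0.00104 to 0.269).

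Among 23 tested regulators of these transporters, 8 rose, 11 fell and 4 missed the threshold, and the median log2 fold change was -0.13. The share called, 82.6%, was near the 83.8% of all genes. Nedd4, a ubiquitin ligase related to the one that removes the epithelial sodium channel from the membrane, fell 1.43-fold (adjusted p = 2.1e-10, edgeR). Wnk1, a chloride-sensing kinase that acts on cation-chloride cotransporters, rose 1.21-fold (adjusted p = 4.6e-07), and Sgk1, an aldosterone-induced kinase, 1.10-fold (adjusted p = 0.0014, both edgeR). Cul3, a ubiquitin ligase scaffold that acts on WNK kinases, and Cab39, a partner of their downstream kinases, rose by 0.17 and 0.18 on the log2 scale (adjusted p = 0.0064 and 0.0073, edgeR). Both calls were lost without Setdb2WT replicate 2, at adjusted p of 0.074 and 0.083, and without Setdb2WT replicate 3, at 0.064 and 0.052. Oxsr1, a kinase downstream of WNK kinases, fell 1.09-fold (adjusted p = 0.0017, edgeR), but turned to a log2 fold change of 0.03 under total-count scaling.

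Other genes on this list, chosen after their values were seen, differed by more, with 3 higher and 5 lower by over 2-fold. St14, a membrane protease that activates epithelial sodium channels, had 16, 12 and 12 reads in the Setdb2KO-labelled libraries, against 0, 0 and 2 in the Setdb2WT-labelled ones (adjusted p = 0.00032, edgeR). Its fitted log2 fold change was 3.96, against 6.69 without Setdb2WT replicate 3, which holds both reads. Spint1, an inhibitor of such proteases, rose 2.18-fold (adjusted p = 2.2e-08, edgeR). Nr3c2, the mineralocorticoid receptor, rose 2.43-fold to 5.56 ± 0.49 CPM in Setdb2KO-labelled libraries, against 2.29 ± 0.57 CPM in Setdb2WT-labelled ones (SD, n = 3 each; adjusted p = 8.0e-06, edgeR). Tsc22d3, a glucocorticoid-induced gene, fell 2.69-fold (adjusted p = 4.2e-12, edgeR). Nherf1, a scaffold that holds transporters at the apical membrane, fell 3.15-fold (adjusted p = 8.0e-14, edgeR). Wnk4, a kinase related to Wnk1, fell 2.11-fold (adjusted p = 2.5e-09, edgeR). Sgk3 and Sgk2, kinases related to Sgk1, fell 3.50-fold and 10.4-fold (adjusted p = 5.0e-09 and 8.6e-07, edgeR), Sgk2 at 3 to 7 reads in Setdb2KO-labelled and 45 to 65 reads in Setdb2WT-labelled libraries.

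**Figure D3:**
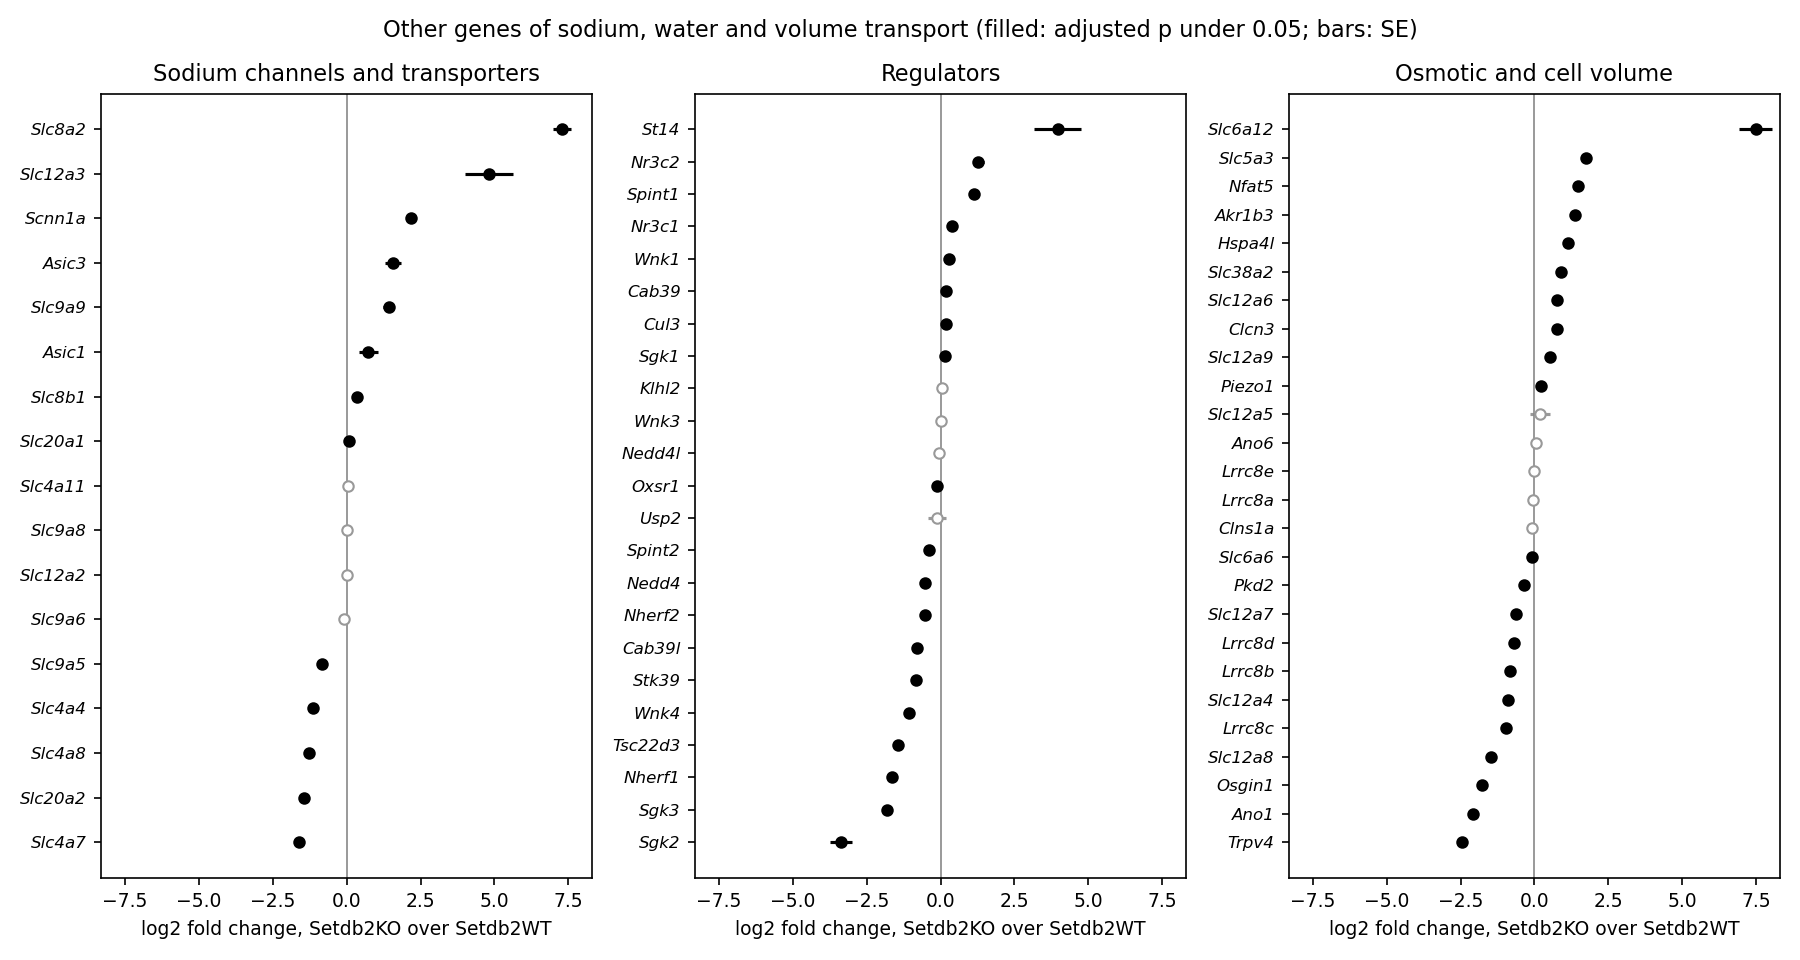
Log2 fold change, Setdb2KO-labelled over Setdb2WT-labelled libraries, of the tested genes reported here, outside the 8, on the lists of sodium channels and transporters, regulators, and osmotic and cell volume genes; filled points passed edgeR's test at an adjusted p of 0.05, open points did not, and bars are standard errors. Points lie on both sides of 0 in each list, and Slc8a2 and Slc6a12, with few reads in the Setdb2WT-labelled libraries, lie farthest to the right.

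Of 26 osmotic and volume genes tested, 10 rose, 11 fell and 5 did not pass, and the list's median log2 fold change was -0.03. The 80.8% called, and their division, were near those of all genes, with 83.8% called, 41.5% higher and 42.3% lower. Of the 6 with the highest level, 5 rose and 1, Slc6a6, fell. Nfat5 had 803, 741 and 812 CPM in the Setdb2KO-labelled libraries, against 287, 285 and 282 CPM in the Setdb2WT-labelled ones, and rose 2.76-fold (adjusted p = 7.8e-14, edgeR). Akr1b3, the aldose reductase that makes sorbitol from glucose, rose 2.59-fold to 1537 ± 53 CPM in Setdb2KO-labelled libraries, against 593 ± 11 CPM in Setdb2WT-labelled ones (SD, n = 3 each; adjusted p = 4.4e-14, edgeR). The chaperone Hspa4l rose 2.21-fold (adjusted p = 1.3e-12) and the amino acid transporter Slc38a2 1.88-fold (adjusted p = 7.7e-11, both edgeR).

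Other osmolyte transporters, apart from Slc6a6, were chosen after their values were seen. Slc5a3, which takes up myo-inositol, had 343, 321 and 381 CPM in the Setdb2KO-labelled libraries, against 107, 104 and 103 CPM in the Setdb2WT-labelled ones, and rose 3.33-fold (adjusted p = 5.8e-13, edgeR). Slc6a12, which takes up betaine, had 101, 95 and 71 reads in the Setdb2KO-labelled libraries, against 1, 0 and 0 in the Setdb2WT-labelled ones. The summed reads stood at a ratio of 242 (exact 95% interval 43.1 to 9600; adjusted p = 1.0e-08, edgeR). The single Setdb2WT read is in replicate 1, and the fitted log2 fold change was 7.48 with that library and 9.42 without it. The taurine transporter Slc6a6 did not rise with them. It was at 671 ± 16 CPM in Setdb2KO-labelled and 708 ± 2.4 CPM in Setdb2WT-labelled libraries (SD, n = 3 each), 1.06-fold lower (adjusted p = 0.020, edgeR), a direction that turned under total-count scaling (log2 fold change 0.08).

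Channels that answer to cell volume or stretch differed among themselves. Of the 5 Lrrc8 genes, whose products form the volume-regulated anion channel, Lrrc8b, Lrrc8c and Lrrc8d fell 1.76-fold, 1.93-fold and 1.63-fold, with adjusted p from 1.2e-10 to 2.1e-09 in edgeR's test. Lrrc8a, the obligatory subunit, and Lrrc8e did not pass (adjusted p = 0.45 and 0.95, edgeR). Trpv4, a cation channel opened by cell swelling, had 28.2, 27.7 and 29.0 CPM in the Setdb2KO-labelled libraries, against 157, 154 and 158 CPM in the Setdb2WT-labelled ones, and fell 5.52-fold (adjusted p = 1.0e-15, edgeR). The Lrrc8 genes and Trpv4 were chosen after their values were seen. Piezo1, a channel opened by membrane stretch, rose 1.17-fold (adjusted p = 2.4e-05, edgeR).

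**Figure D4:**
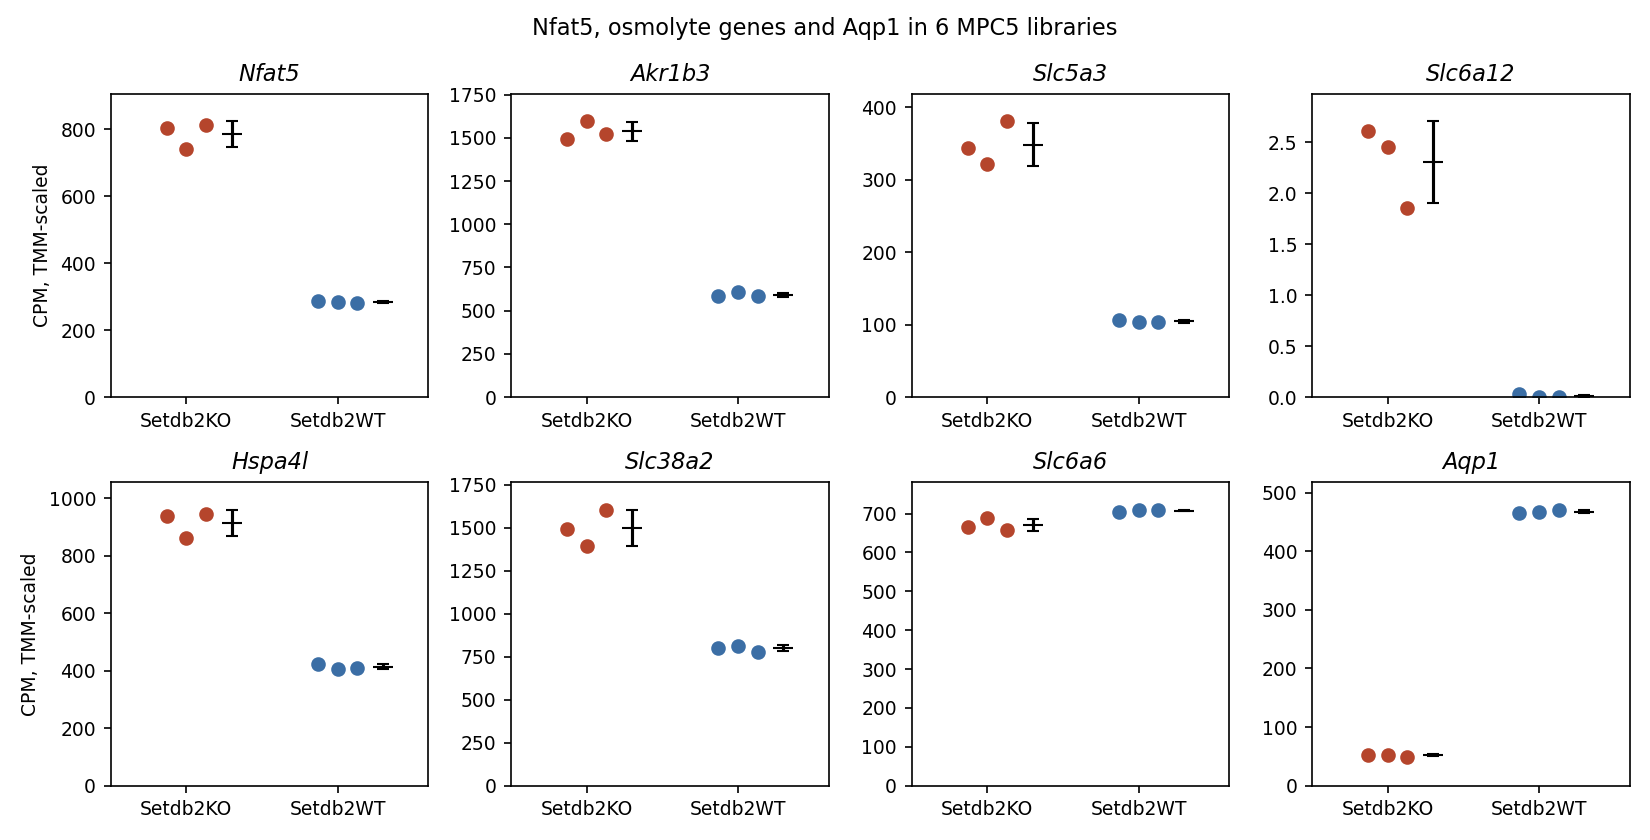
TMM-scaled CPM of Nfat5, Akr1b3, Slc5a3, Slc6a12, Hspa4l, Slc38a2, Slc6a6 and Aqp1 in each library, 1 panel per gene with its own axis from 0; points are libraries, and bars give mean and SD, n = 3 each. Setdb2KO-labelled libraries lie above Setdb2WT-labelled ones for the first 6 genes and below them for Slc6a6 and Aqp1.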

How the data were processed

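RNA of 6 MPC5 libraries was extracted with TRIzol and prepared with a VAHTS kit, as the labels' protocols state. What the authors deposited is 1 table of unnormalised read counts, with a column for each library. The submitters' processing notes name fastp, HISAT, HTSeq and GRCm39; their versions, the annotation and the strand setting: not given in the sources used here. Each column name holds the genotype and number of 1 sample.

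Counts were tested with edgeR 4.0.16 in R 4.3.3: quasi-likelihood F test, TMM scaling, filterByExpr (minimum count 10), genotype as the only term, Benjamini-Hochberg adjustment over 13509 genes, threshold 0.05. CPM are TMM-scaled. SE is that of the log2 fold change, derived as its absolute value divided by the square root of the F statistic. Exact intervals of read ratios are Clopper-Pearson at 95% and cover counting error only; at 36461449 to 37129174 reads per library, genes with a few reads carry wide error. Lengths are those of the longest principal transcript in GENCODE M21 (GRCm38), found for 73.0% of genes. RefSeq (GRCm38.p6) gave neighbours, overlaps and promoters, the last for 7 of the 8 genes. Scripts were tested on simulated data in which only a small part of the genes differed. That check does not cover differences as common as those found here.

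Members and lists were chosen with earlier results of these data known. Named genes were the 8, every tested gene of the aquaporin, pump and FXYD lists, the 6 genes of highest mean CPM in each other list, the 3 nearest profiles, neighbours, Setdb2 and Smad3; others are marked in the text. Some listed genes are not reported here, and list counts leave them out. Same-numbered libraries did not deviate together (correlations -0.037 to 0.00086). No 2 libraries of a group agreed within sampling noise, where chi-square per degree of freedom would be near 1. It was 8.84 and 15.7 for the pairs with Setdb2KO replicate 2, and 4.38 for Setdb2KO replicates 1 and 3. Between Setdb2WT libraries it was 2.55 to 2.71. Alternatives were other scalings and filters, DESeq2 1.42.0, limma-voom (limma 3.58.1), a replicate block and each library left out.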

Additional observations from a re-analysis of the deposited data

How the results depend on the processing

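Every list count stayed within 1.5 times its main value under all alternatives run, and the number of genes called over the whole table ran from 10380 to 12183, against 11318. Of 962 repeats of the tests on 69 other genes, 894 kept direction and side of the threshold, 23 lost the call and 7 gained it. In 34 repeats, on 9 genes, the sign changed with no call in either fit. In 4 the sign changed with a call in at least one fit, all under total-count scaling, where the log2 fold change turned to 0.11 for Nedd4l, 0.028 for Oxsr1, 0.15 for Slc12a2 and 0.077 for Slc6a6. That scaling moves the median of all genes by 0.15. Across all alternatives the log2 fold change ran from -3.20 to -3.02 for Aqp1, -1.32 to -1.03 for Aqp5, -2.67 to -2.41 for Fxyd5 and 0.33 to 0.51 for Atp1b3. Atp1b1 lay between -0.0063 and 0.18, the sign turning without Setdb2KO replicate 3 and without Setdb2WT replicate 2. Leaving out single libraries moved the log2 ratio of summed reads between -0.72 and 0.60 for Aqp3 and between 0.37 and 1.59 for Atp1b2, whose few reads limit what this depth can show. The replicate block called 11190 genes; the numbers do not pair the libraries, and a library correlated best with its own number in 0 of 3 cases. Without a length correction Atp1b3 held 64.8% of beta subunit reads in Setdb2KO-labelled and 59.4% in Setdb2WT-labelled libraries. The joined length of all exons, an alternative chosen after seeing the data, gave 70.4% and 65.4%. Ranking by Pearson correlation shared 0 of the 3 nearest genes for Aqp1 and for Atp1b3.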
